A study of Mus musculus with 12 samples.

Results

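The cytosolic ribosomal protein genes encode the protein shell of the ribosome that translates all nuclear-encoded mRNA. Members were taken from the gene annotation by symbol: protein-coding mouse genes named Rpl or Rps with a number, together with Rplp0, Rplp1, Rplp2 and Rpsa. Of 101 protein-coding symbols of this form, 10 Rps6k kinase genes, 2 genes named as pseudogenes and 2 genes that do not encode a ribosomal protein (Rps19bp1 and Rps23rg1) were left out. This gave 87 genes of the 21900 protein-coding genes in the annotation. Of these, 77 are the main genes of the family and 10 are paralogues or retrogenes, named Rpl3l, Rpl7l1, Rpl10l, Rpl22l1, Rpl32l, Rpl36al, Rpl37rt, Rpl39l, Rps27l and Rps27rt.

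The values come from ChIP-seq of H3K79me2, dimethylation of a lysine in the core of histone H3, for which DOT1L is the known enzyme. Isolated CD8 T cells of male mice were activated through CD3 and CD28 on day 0 and expanded to day 8 under 0.1% DMSO (the vehicle), EPZ-5676 or SGC-0946, both inhibitors of DOT1L, renewed every 2 days. All groups shared the strain label CreERT2;DOT1L-flox;OT-I with the genotype wt;wt;het, that is, no Cre and no floxed allele, and 1 allele of the OT-I T cell receptor transgene, which gives most T cells the same receptor. The labels state the same dose, 10 mM, for each inhibitor, a doubtful unit for compounds given to cells. The 12 libraries, 6 immunoprecipitates and 6 inputs, came from 2 biological replicates per treatment, and the labels do not say whether a replicate was 1 animal or a pool.

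The deposited data were 1 list of broad peaks per treatment, called here the DMSO, EPZ and SGC lists, with 12578, 4443 and 55 peaks on mm10 (GRCm38). Spread between replicates is therefore not measured, no p-value can be given, and read depth is unknown, so a gene without a peak is a gene where none was called. The fold enrichment given for a gene is that of its highest peak, a deposited ratio over background, and is read within its own list. Genes were called marked if a peak overlapped them by 1 base or more. Of the marker genes used to check the label, 6 of 6 genes listed for CD8 T cells were marked in DMSO. They were Cd3d, Cd3e, Cd3g, Trac, Cd8a and Cd8b1, of which only Cd8a and Cd8b1 set CD8 apart from CD4 T cells. Of the others, 0 of 2 CD4 T cell, 0 of 2 NK cell and 0 of 4 myeloid genes were marked. The 1 of 3 B cell genes marked was Cd79a. Fewer cells with the mark and less mark per cell cannot be told apart in these pooled cells.

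Ribosomal protein genes are among the most strongly transcribed genes of growing cells. Their mRNAs begin with a C followed by a run of pyrimidines, the TOP motif, through which mTOR signalling sets their translation, and T cells raise ribosome production sharply when they are activated. H3K79me2 is known to lie over the first part of transcribed genes, downstream of the start. It is removed slowly when DOT1L is inhibited, in part by dilution as cells divide.

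The promoters of the family are shown first, because most of the peaks described below begin near the gene start. The 5 main genes shown here have the highest DMSO fold enrichment among those with a pyrimidine run at the annotated start. The sequences are from RefSeq on GRCm38.p6 and run 5′ to 3′ on the strand of the gene, from 80 bases before the start to 20 bases into the transcript. Capitals mark the pyrimidine run over the start and any CCGGAAG, the core bound by ETS factors. Rps10 lies at chr17:27635225-27635324 on the minus strand, Rpl27a at chr7:109519115-109519214 on the plus strand, Rpl15 at chr14:18270967-18271066 on the minus strand, Rpl31 at chr1:39367771-39367870 on the plus strand and Rpl28 at chr7:4792885-4792984 on the plus strand.
Rps10: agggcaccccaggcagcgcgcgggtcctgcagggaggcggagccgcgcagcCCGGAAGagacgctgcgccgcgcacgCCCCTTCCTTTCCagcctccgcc
Rpl27a: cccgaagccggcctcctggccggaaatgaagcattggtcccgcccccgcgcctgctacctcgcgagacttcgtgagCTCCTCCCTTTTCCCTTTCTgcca
Rpl15: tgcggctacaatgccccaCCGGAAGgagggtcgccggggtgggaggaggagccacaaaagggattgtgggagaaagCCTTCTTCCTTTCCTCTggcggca
Rpl31: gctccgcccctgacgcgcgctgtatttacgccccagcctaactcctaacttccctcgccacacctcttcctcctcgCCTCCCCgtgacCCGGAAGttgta
Rpl28: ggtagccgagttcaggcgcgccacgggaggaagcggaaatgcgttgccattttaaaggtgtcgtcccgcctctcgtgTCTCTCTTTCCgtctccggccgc

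A promoter was in the RefSeq table for 57 main genes and all 10 paralogues. The 20 main genes without an entry included Rpl3, Rpl7, Rpl8, Rpl17, Rpl21, Rpl23a, Rpl29, Rpl30, Rpl32, Rpl36, Rplp1, Rps14, Rps20, Rps27a and Rps29. At least 5 pyrimidines in a row between positions -2 and +4 of the annotated start, read on the gene's own strand, were found in 17 of the 57 main promoters (29.8%). The share was 5.56% over the 17492 protein-coding genes with an entry and 6.15% over the 6149 of them with a DMSO peak. No paralogue promoter of the 10 had such a run. The rule depends on the annotated start being exact, and a run a few bases away is not counted. A run that begins exactly at the first transcribed base, after a purine, is not counted either. This was so at Rps27rt, whose annotated transcript begins with a C followed by further pyrimidines. The count of 0 among paralogues is therefore not evidence that they lack such a run.

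Of the other motifs, the ETS core CCGGAAG lay in 23 of 57 main promoters (40.4%), against 11.9% of all promoters and 23.5% of those of DMSO-marked genes. These were searched on both strands over the 250 bases before and 50 bases after the start, and overlap of motifs was allowed. The YY1 core AGATGGC was in 7 main promoters (12.3%, against 6.16% of all), and TATAAA in 6 (10.5%, against 13.3%). The E-box CACGTG bound by Myc was in 5 (8.77%, against 7.91%) and the NRF1 core GCATGCG in 4 (7.02%, against 4.50%). Among DMSO-marked genes the shares were 8.62% for YY1, 6.41% for TATAAA, 10.5% for the E-box and 7.76% for NRF1. The last 3 shares of the main genes are near those of all promoters. For TATAAA the main genes lie below all promoters and above those of DMSO-marked genes. Main genes with and without the ETS core had like DMSO peaks, with a median highest fold enrichment of 6.96 (23 genes) and 7.54 (34 genes). Those with and without a pyrimidine run had medians of 7.57 (17 genes) and 7.40 (40 genes).

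**Figure D1:**
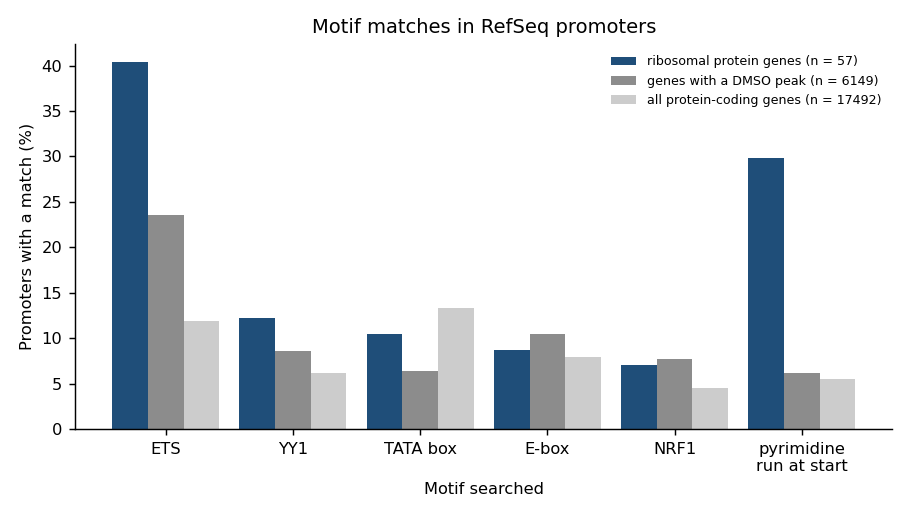
Bars give the percent of RefSeq promoters with a match to each motif (vertical axis, from 0) for the 57 main ribosomal protein genes, the 6149 genes with a DMSO peak and the 17492 protein-coding genes with a promoter entry. The ribosomal bars stand at 40.4% for the ETS core and 29.8% for the pyrimidine run, and near the other bars for the E-box and NRF1.

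In vehicle-treated cells every main ribosomal protein gene overlapped an H3K79me2 peak, in 24 of them a peak that also touched another protein-coding gene. All 77 main genes had a DMSO peak, 46 of 46 of the large and 31 of 31 of the small subunit, and with 4 marked paralogues the count over the family was 81 of 87. Over all protein-coding genes 34.5% were marked in DMSO. With EPZ-5676, 76 of the 77 main genes and 3 paralogues still had a peak, 79 of 87 in all, against 15.9% of all protein-coding genes and 46.1% of those with a DMSO peak. In the SGC list 0 of 87 had one, against 0.142% of all genes, a background so low that 0 of 87 says little about the family.

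The height of the DMSO peaks was in the upper part of the list. The highest peak of each main gene had a median fold enrichment of 7.39 (interquartile range 6.49 to 8.85, lowest 4.26, highest 13.5), and the median over all marked genes was 4.47. By rank among the 7563 marked genes, the main genes had a median percentile of 87.2, and 64 of the 77 stood above percentile 75. Small-subunit genes had a median of 7.57 and large-subunit genes 7.30, with interquartile ranges of 6.90 to 9.61 and 6.45 to 8.18 that overlap.

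Rps19, which encodes the small-subunit protein most often mutated in Diamond-Blackfan anaemia, had the highest DMSO value of the family, 13.5, and an EPZ peak of 10.9 within the EPZ list. Rps14, whose loss is known from the 5q- syndrome of human bone marrow, had 13.1 in DMSO and 10.4 in EPZ. Rps16 followed at 12.2, Rpl19 at 11.9, Rpl32 at 11.6 and Rpl8 at 11.3. Rpl11, which with Rpl5 binds Mdm2 when ribosome assembly is disturbed, had 11.1, and Rps15, Rpl23 and Rpl13 completed the 10 highest at 11.0, 10.6 and 10.6. All 10 had an EPZ peak, and none of their DMSO peaks but that of Rpl32, which also covered Cand2, touched another protein-coding gene.

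At the other end stood Rpl37a at 4.26, Rpl36a at 4.35, Rpl29 at 4.44, Rps4x at 4.46, Rps21 at 4.77 and Rpl41, which encodes the shortest ribosomal protein, at 5.00. Rps27a, which encodes a small-subunit protein fused to ubiquitin, had 5.09 and Rpl7 had 5.30. The paralogues Rpl22l1 and Rpl7l1, at 2.92 and 5.05, completed the 10 lowest. Of these 10, Rpl36a and Rpl22l1 had no EPZ peak, although Rpl37a, with a lower DMSO value than Rpl36a, had an EPZ peak of 1243 bases at 3.39. The Rpl36a DMSO peak was the narrowest of the main genes at 948 bases, against 2230 bases at Rpl37a.

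Other members with well known roles lay between these ends. The stalk proteins that bring elongation factors to the ribosome are encoded by Rplp0, Rplp1 and Rplp2, with DMSO values of 8.95, 7.49 and 6.95 and EPZ values, in that list, of 8.95, 4.27 and 5.24. Rpsa, which encodes a small-subunit protein also described as a laminin receptor, had 6.96 in DMSO and 4.11 in EPZ. Rps6, whose product is the S6 kinases' substrate downstream of mTOR, had 5.71 and 4.46. Rpl5 had 7.05 and 5.40. Within the EPZ list the highest family values were those of Rpl32 at 11.9, Rps19 at 10.9 and Rpl4 at 10.7, and the lowest was that of Rps20 at 2.95.

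In most of these short genes, DMSO peaks covered more than 50% of the gene. The main genes had a median length of 3175 bases, and their DMSO peaks covered a median of 2519 bases and 87.3% of the gene, against 23.7% over all marked genes. Over marked genes in the length range of the main genes the median was 47.5%, and over those that also had a DMSO fold enrichment in their interquartile range it was 81.7%. Throughout, the sets of all genes, of like length and of like DMSO fold enrichment include the main genes that meet their bounds. The whole gene lay under DMSO peaks in 20 of the 77, and 71 had more than 50% covered. A single DMSO peak met the gene in 76 of 77 main genes, the exception being Rpl19 with 2 peaks, and each main gene with an EPZ mark had a single EPZ peak. Rps15a, on chromosome 7 from 118104374 to 118116147, was the longest main gene and had the most bases under DMSO peaks, 10704, followed by Rpl5 with 6270, Rpl22 with 6153, Rps3 with 5814 and Rpl24 with 5163.

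With EPZ-5676 the peaks were shorter in most of the main genes, and most of these kept more than 50% of their DMSO bases. EPZ peaks covered a median of 1800.5 bases in the 76 main genes that had one, and a median of 66.8% of the bases under DMSO peaks also lay under EPZ peaks (interquartile range 54.7 to 78.4). Over all 3486 genes marked in both lists this retained share had a median of 34.3%. More than 50% was retained in 62 of 76 main genes (81.6%), against 31.3% of all genes marked in both. Across the 76 main genes the rank correlation of gene length with retained share was -0.41, given as a description. Over genes of the same length range as the main genes the median was 50.6%. Over genes of that length range whose DMSO fold enrichment also lay in the interquartile range of the main genes it was 58.2%. That set holds part of the main genes themselves, so it is not a separate group. These are descriptions of 1 list per treatment, and the differences have no test.

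**Figure D2:**
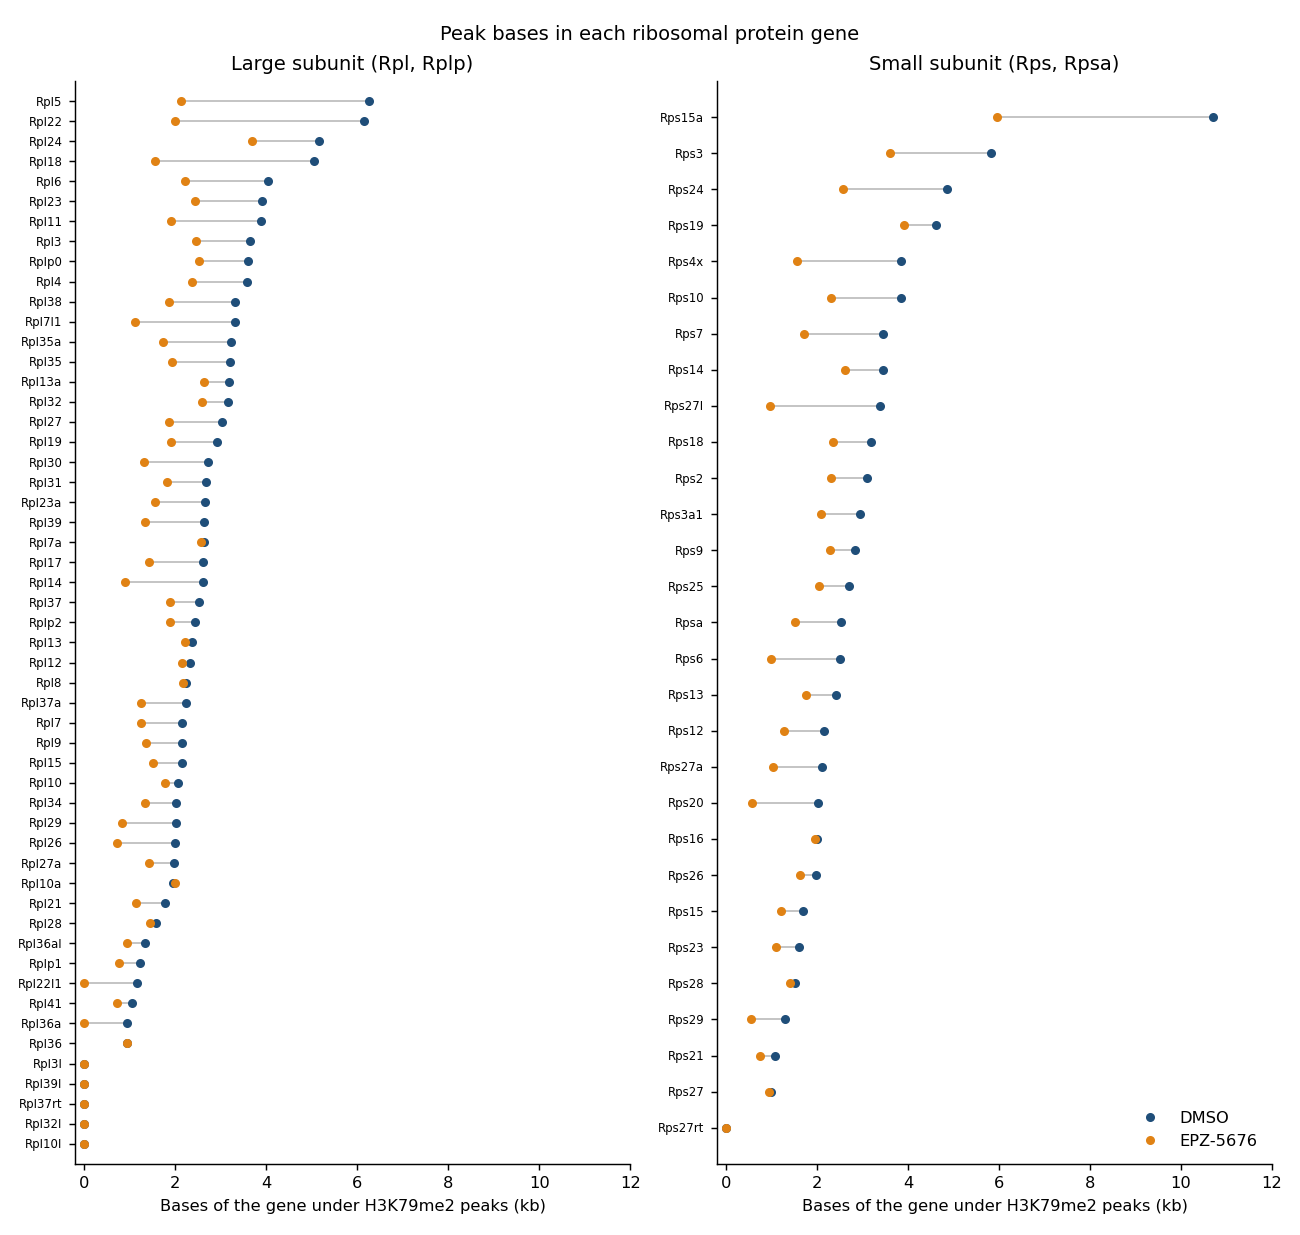
Each row is 1 gene of the family (5 main genes are not drawn), with the kilobases of the gene under DMSO peaks and under EPZ-5676 peaks as points joined by a line, for the large subunit (left) and the small subunit (right). EPZ points lie to the left of DMSO points in nearly all rows, with the longest gaps at Rps15a, Rpl5 and Rpl22, and 6 paralogues have 0 in both lists.

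The largest retained shares included those of Rpl36 at 100%, Rpl7a at 98.1%, Rps16 at 97.5%, Rpl8 at 97.0%, Rps27 at 96.8%, Rpl10a at 95.2% and Rpl13 at 93.9%. At Rpl36, on chromosome 17 from 56610094 to 56614246, the DMSO peak of 5379 bases also covered Lonp1, and 931 of its bases lay in Rpl36. At Rps16 the values were 2010 bases in DMSO and 1959 in EPZ, in a gene wholly under its DMSO peak. At Rpl10a the EPZ peak was slightly longer than the DMSO peak, 1997 against 1957 bases. Rpl13a, which encodes a large-subunit protein, had 9.86 in DMSO and 8.74 in EPZ, and 82.8% was retained.

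Among genes with an EPZ peak, the smallest retained shares were at Rps20 with 28.1%, Rps27l with 28.8%, Rpl18 with 30.8%, Rpl22 with 32.4%, Rpl7l1 with 33.7%, Rpl5 with 33.8%, Rpl14 with 34.2% and Rpl26 with 36.2%. Rpl22 encodes a large-subunit protein that is needed for development of alpha-beta T cells. It had 6153 bases under the DMSO peak and 1993 under the EPZ peak. Rpl18 had 5058 and 1556 bases, within a DMSO peak that also covered Sphk2. Rps20 had 2019 and 568 bases. In these 8 genes the EPZ peak lay inside the DMSO peak, as it did in 73 of the 79 members with an EPZ peak.

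Among the main genes the retained share went with the height of the DMSO peak. Across the 76 genes the rank correlation of DMSO fold enrichment with retained share was 0.47, and over all 3486 genes marked in both lists it was 0.71. These points come from the same pair of lists, and genes are not independent replicates. In the small subunit the median retained share was 70.7% and in the large subunit 65.5%, with interquartile ranges of 54.5 to 81.6 and 54.8 to 74.9. It was 62.4% in main genes whose DMSO peak touched no other protein-coding gene and 74.3% in those with a shared peak, of which there were 52 and 24 with an EPZ peak. Of the 77 main genes 24 (31.2%) shared their highest DMSO peak with another protein-coding gene, against 23.0% of all marked genes, 36.2% of those in the same length range and 50.7% of those of like length and DMSO fold enrichment. In genes with a shared peak the mark cannot be given to 1 gene alone.

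**Figure D3:**
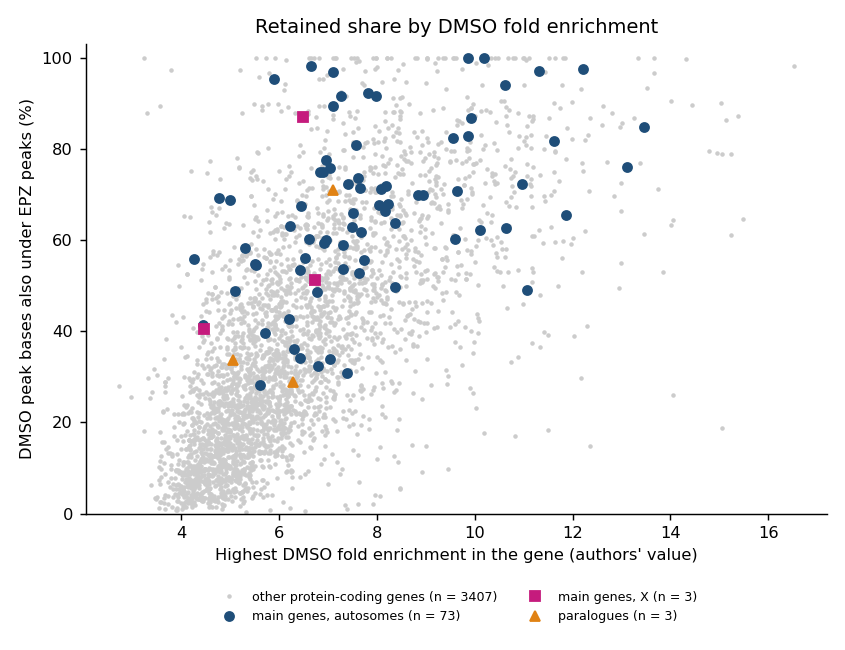
Each point is a protein-coding gene marked in both lists, placed by its highest DMSO fold enrichment (horizontal axis) and the percent of its DMSO peak bases also under EPZ peaks (vertical axis). Main ribosomal protein genes on autosomes, those on X and paralogues are drawn over the other genes in grey, and the main genes lie from 28.1% to 100%, in the upper part of the cloud below a fold enrichment of 6.

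Presence of an EPZ peak was also read at equal DMSO fold enrichment, because peaks of low DMSO value rarely had one. At a DMSO value of 4 to 5, 5 of 6 main genes had an EPZ peak (83.3%), against 44.9% of all 1671 marked genes at that height. At 5 to 6 the counts were 7 of 7 against 81.2%, at 6 to 8 they were 37 of 37 against 91.4%, and at 8 or more 27 of 27 against 94.4%. At the heights where most of the main genes lie, their share is thus close to that of all genes. No main gene had a DMSO value under 4, where at most 4.52% of genes had an EPZ peak.

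The genes of the mitochondrial ribosome, which translates the few mRNAs of the mitochondrial genome, were set beside these as the most alike family. Of 78 Mrpl and Mrps genes 68 had a DMSO peak (87.2%), with a median highest fold enrichment of 3.61, and 12 of those 68 had an EPZ peak (17.6%). At DMSO values of 4 to 5, 5 of 14 had one, at 5 to 6, 3 of 6, and at 6 to 8, 4 of 6. In the 12 marked in both lists the median retained share was 29.6%. The cytosolic and mitochondrial counts are given side by side, without a test.

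**Figure D4:**
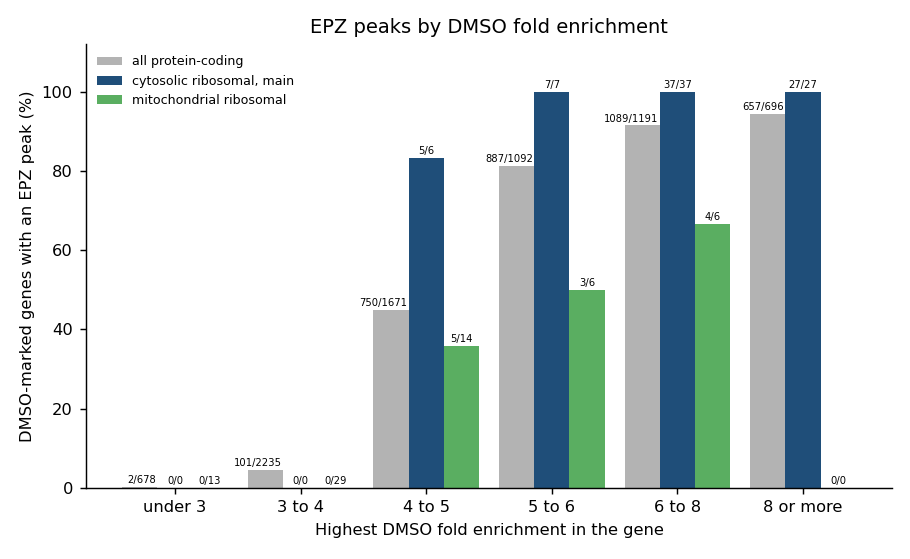
Bars give the percent of DMSO-marked genes that also had an EPZ peak, by highest DMSO fold enrichment, for all protein-coding genes, the main cytosolic ribosomal protein genes and the mitochondrial ribosomal protein genes, with counts above each bar. The main cytosolic genes reach 83.3% at 4 to 5 and 100% from 5 upwards, and have no member below 4.

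Peaks over the main genes began near the annotated start. In the 56 main genes with an annotated start and a peak in both lists, the DMSO peak ran from a median position of -94.5 bases (before the start) to 3022.5 bases after it. The EPZ peak ran from a median of 45 to 1914 bases after the start. The median loss was 172 bases at the upstream edge and 974.5 bases at the downstream edge, and 43 of 56 (76.8%) lost more at the downstream edge. Over all 2831 such genes this share was 84.0%. Over those in the length range of the main genes it was 72.3%, and over those of like length and DMSO fold enrichment 70.4%. Greater loss downstream was thus frequent in all these sets, and the share of the main genes lay between theirs. Of the main genes, it was 89.2% where the DMSO peak touched no other protein-coding gene and 52.6% where it was shared. Edges of a shared peak can belong to the neighbouring gene.

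The start itself lay under a DMSO peak in 43 of the 67 members with an annotated start, against 13.6% of all protein-coding genes with one, and under an EPZ peak in 24 of 67, against 2.88%. Of the 57 main genes these were 40 and 23 (70.2% and 40.4%). Over the 6149 genes with a DMSO peak the shares were 38.8% and 8.20%. Over genes of like length and DMSO fold enrichment the start was under a peak in 222 and 108 of 310, shares close to those of the main genes. At 500 bases after the start 56 of 57 main genes (98.2%) were under a DMSO peak and 94.7% under an EPZ peak, against 77.0% and 27.0% of the 6149 genes with a DMSO peak. Of those 6149 genes, 2831 had an EPZ peak anywhere in the gene. At 2000 bases the shares were 89.5% and 43.9%, against 71.0% and 28.0%. At 3000 bases they were 50.9% and 10.5%, below the 57.7% and 20.7% over the 6149 genes. Many main genes end near this distance, with a median length of 3175 bases against 17146 over all protein-coding genes. The shares at 3000 bases are therefore not compared at equal gene length. Genes with the start under an EPZ peak included Rps16, Rps3, Rpl11, Rpl13a, Rpl4 and Rpl7a. Upstream of the start peaks were less frequent, with 24.6% of main genes under a DMSO peak and 3.51% under an EPZ peak at 1000 bases before it, against 20.8% and 6.15% of the genes with a DMSO peak. The farthest upstream edge was at Rpl35, whose DMSO peak began at position -9640 and also touched Arpc5l.

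**Figure D5:**
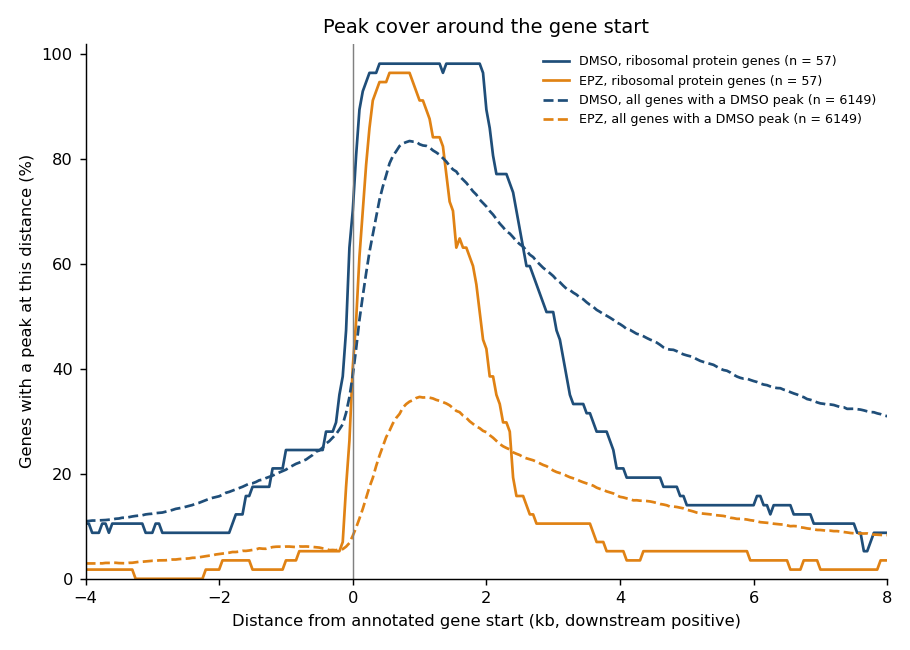
Lines give the percent of genes under a peak at each distance from the annotated gene start, in kilobases with downstream positive, for 57 main ribosomal protein genes (solid) and 6149 genes with a DMSO peak (dashed), in the DMSO and EPZ lists. The ribosomal lines reach 98.2% in DMSO and 96.5% in EPZ within the first kilobase, and the EPZ line falls nearer to the start than the DMSO line. The main genes have a median length of 3175 bases, so many of them end within the range drawn.

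Marking was uneven among the paralogues. Of 10 paralogues 4 had a DMSO peak and 6 had none, in either the DMSO or the EPZ list. The unmarked ones were Rpl3l, which is known from heart and skeletal muscle, Rpl10l and Rpl39l, known from testis, and Rpl32l, Rpl37rt and Rps27rt. Their parent genes Rpl3, Rpl10, Rpl39, Rpl32, Rpl37 and Rps27 all had peaks in both lists, with DMSO values of 6.44, 6.49, 6.73, 11.6, 6.84 and 7.09. The marked paralogues were Rpl36al at 7.09, Rps27l at 6.28, Rpl7l1 at 5.05 and Rpl22l1 at 2.92. With 4 of 10 marked, the paralogues stand near the 34.5% of all genes.

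Among the 4 pairs with both genes marked, the DMSO values of Rpl22 and Rpl22l1 lay farthest apart. Rpl22 had a DMSO peak of 6153 bases at 6.79 and an EPZ peak at 4.24. Rpl22l1, which Rpl22 is known to hold down, had a DMSO peak of 1154 bases at 2.92 and none in EPZ. The pair Rpl36a and Rpl36al went the other way. Rpl36a, on chromosome X, had 948 bases at 4.35 in DMSO and no EPZ peak, and the autosomal Rpl36al had 7.09 in DMSO and 5.45 in EPZ. The Rpl36al DMSO peak of 6486 bases also covered Mgat2. Rpl7, the parent of Rpl7l1, had 5.30 in DMSO and 3.88 in EPZ, against 5.05 and 3.50.

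Promoters are shown for Rpl36a, the main gene with no EPZ peak, and for Rps27, Rpl22 and Rpl39 with their paralogues, of which some were marked and some were not. The window, strand and capitals are as above, and capitals here also mark TATAAA or its complement and the YY1 core AGATGGC. Matches were counted wherever they lay in the bases searched. At Rpl36a the TATAAA lies after the annotated start, inside the transcript, and is not read as a TATA box. At Rpl22 the DMSO and EPZ peaks began 1368 and 1573 bases after the start used here. The Rpl22 sequence shown may therefore not be the promoter in use in these cells, which was not tested. Rpl36a lies at chrX:134585574-134585673 on the plus strand, Rps27 at chr3:90213629-90213728 on the minus strand, Rps27l at chr9:66946006-66946105 on the plus strand and Rps27rt at chr9:114982720-114982819 on the minus strand. Rpl22 lies at chr4:152324356-152324455 on the plus strand, Rpl22l1 at chr3:28805428-28805527 on the plus strand, Rpl39 at chrX:37085203-37085302 on the minus strand and Rpl39l at chr16:10170148-10170247 on the plus strand.
Rpl36a: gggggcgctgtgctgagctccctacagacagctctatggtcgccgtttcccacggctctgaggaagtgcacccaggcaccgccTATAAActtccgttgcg
Rps27: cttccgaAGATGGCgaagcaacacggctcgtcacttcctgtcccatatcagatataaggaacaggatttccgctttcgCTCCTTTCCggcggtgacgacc
Rps27l: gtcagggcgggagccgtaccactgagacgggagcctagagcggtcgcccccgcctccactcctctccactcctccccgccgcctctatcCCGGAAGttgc
Rps27rt: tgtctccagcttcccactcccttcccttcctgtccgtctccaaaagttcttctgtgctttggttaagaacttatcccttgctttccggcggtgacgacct
Rpl22: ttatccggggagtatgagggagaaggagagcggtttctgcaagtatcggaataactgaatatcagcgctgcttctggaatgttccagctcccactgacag
Rpl22l1: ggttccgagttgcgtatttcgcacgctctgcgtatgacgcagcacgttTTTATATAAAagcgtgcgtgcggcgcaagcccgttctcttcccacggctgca
Rpl39: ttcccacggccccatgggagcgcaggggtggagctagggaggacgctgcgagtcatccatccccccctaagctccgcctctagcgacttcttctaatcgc
Rpl39l: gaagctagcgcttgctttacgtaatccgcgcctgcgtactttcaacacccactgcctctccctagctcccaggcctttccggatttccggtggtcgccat

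In the 300 bases around the start, the longest run shared by Rps27 and the retrogene Rps27rt was 38 bases, beginning at position 2 of the Rps27 transcript and at position 1 of Rps27rt. For the other 6 pairs with both promoters in the table it was 7 or 8 bases. The upstream sequence of Rps27rt thus differs from that of Rps27, whose transcript it copies, and Rps27rt had no peak. Reads that fall within copied exons can match both places where the copies are alike, and the exons themselves were not compared. How such reads were assigned is not given in the sources used here, so the 0 at Rps27rt, Rpl32l, Rpl37rt and Rpl10l is uncertain.

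The 4 main genes on chromosome X, of which male cells have 1 copy, stood low in the family. Their DMSO values were 6.49 at Rpl10, 4.35 at Rpl36a, 6.73 at Rpl39 and 4.46 at Rps4x, with a median of 5.48 against 7.49 for the 73 autosomal main genes. Rpl10 retained 86.9% of its DMSO bases under EPZ, Rpl39 51.2% and Rps4x 40.6%, and Rpl36a was the 1 main gene with no EPZ peak. All 4 lay below the autosomal median in DMSO, within the autosomal range, which began at 4.26. The same direction held over all marked genes, with a median DMSO value of 3.94 for 184 genes on X and 4.50 for 7375 autosomal genes. The part that copy number has in this was not tested.

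Many ribosomal protein genes host small nucleolar RNAs (snoRNAs), which guide the modification of rRNA, in their introns. Of the 77 main genes 30 (39.0%) contained at least 1 annotated snoRNA gene, 59 in all, against 2.78% of all DMSO-marked genes. Rpl4 held 5, and Rpl7a and Rpl13a held 4 each. Hosts and other main genes had like DMSO peaks, with medians of 7.36 (30 genes) and 7.39 (47 genes), and EPZ peaks were present in 30 of 30 and 46 of 47. The median retained share was 70.3% in hosts and 64.3% in the others, with interquartile ranges of 59.6 to 82.5 and 52.9 to 75.3 that overlap.

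Fau also encodes a ribosomal protein, fused to a ubiquitin-like protein, and lies outside the family by symbol. It was marked in DMSO at 6.82 and in EPZ at 4.54, and 100% of its DMSO bases were retained. Its DMSO peak also touched Mrpl49, Tm7sf2 and Znhit2.

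Genes for building the ribosome are given beside its protein genes, in counts that have no test. A list of 59 ribosome biogenesis genes, covering nucleolar proteins, RNA polymerase I subunits, rRNA processing and export factors, had 58 members with a DMSO peak, against 34.5% of all genes, and the exception was Ltv1. Of these 58, 36 (62.1%) had an EPZ peak, against 46.1% of all marked genes. No member had an SGC peak. The median highest DMSO fold enrichment was 5.44, against 4.47 over all marked genes. EPZ peaks were more frequent at higher DMSO values. The shares of 62.1% and 46.1% are therefore not at equal height, and no excess is read from them.

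The highest of this list in DMSO were Xrn2, a nuclear exonuclease, at 10.8, Wdr43 at 8.72, Fbl, which encodes the rRNA methyltransferase fibrillarin, at 8.40, Rrs1 at 7.72 and Nop58 at 7.63. The lowest were Utp20 at 2.63, Gnl3l and Utp14a at 2.93, Nle1 at 3.05 and Wdr12 at 3.10, and these 5 had no EPZ peak. Npm1 and Ncl, which encode the abundant nucleolar proteins nucleophosmin and nucleolin, had 6.33 and 6.48 and retained 43.2% and 43.0% of their DMSO bases. The members of highest DMSO value without an EPZ peak were Polr1b at 5.92, Wdr75 at 5.84, Taf1a at 5.06, Nop10 and Polr1a at 4.93, Pes1 at 4.74, Dimt1 at 4.42, Znhit3 at 4.34, Nat10 at 3.97 and Gar1 at 3.85. Polr1a and Polr1b encode the largest subunits of RNA polymerase I. The median retained share in the 36 was 33.7%, near the 34.3% over all genes marked in both lists. It was 66.8% in the main ribosomal protein genes. Those have higher DMSO peaks (median 7.39 against 5.44) and are shorter (median length 3175 against 16030 bases). The retained shares are therefore not at equal height or length, and no difference between the families is read from them.

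With a stricter threshold, a −log10 q of at least 5 for every peak, 75 of the 77 main genes remained marked in DMSO and 63 in EPZ. Over the family the counts were 78 and 65 of 87, against 17.3% and 7.68% of all protein-coding genes. The 2 main genes lost in DMSO were Rpl36a and Rps4x, both on chromosome X. The 14 without an EPZ peak at this threshold included Rpl7, Rpl21, Rpl29, Rpl36a, Rpl37a, Rpl38, Rpl41, Rplp1, Rps4x, Rps20, Rps21, Rps27a and Rps29.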

How the data were processed

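Tools named in the submitters' processing notes are MACS2 (2.2.7.1), Picard and BWA (0.7.17-r1188), with mm10 (GRCm38) and sacCer3 as builds. Details of thresholds, replicate pooling and any use of inputs or yeast spike-in were not given in the sources used here. Peak names carry a treatment and no replicate, so each list was treated as 1 pooled sample. Column meanings follow the broad peak format: the authors' fold enrichment is a ratio over background and the authors' −log10 q its significance, each averaged along the peak. The deposited score was left unused. Overlaps with RefSeq genes (GRCm38.p6) were computed in Python 3.11.15 with pandas 2.3.3, and checked on simulated intervals. The retained share is the percent of a gene's DMSO peak bases that also lie under EPZ peaks. Where a gene had several annotated starts, the most upstream in the RefSeq promoter table was used. It can lie some bases, or much farther, from the start in use. Named genes were those highest or lowest in DMSO fold enrichment, retained share and DMSO bases, the unmarked, X-linked, peak-sharing and paralogue members, and genes of known role; values of some genes that the rule names are not reported here. Members, lists and the rule were chosen with earlier results of these data known. Depth per sample is unknown from peak lists.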

Additional observations from a re-analysis of the deposited data

How the results depend on the processing

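Of 55 values recomputed under 6 alternatives, 48 differed from the reported value by less than the bounds set (1.5 times for a count, the 95% binomial interval of the median for a median) and 7 by more. Requiring peaks to cover at least 50% of the gene left 40 of 87 members marked in EPZ, with a median retained share of 76.0%, and 15 and 2 ribosome biogenesis genes marked in DMSO and EPZ. A −log10 q of at least 5 left 19 biogenesis genes marked in EPZ. In the 1 kb on each side of the gene start, for members with an annotated start, the median retained share was 86.2%. Over the gene interval of the members it was 66.3%, so the retained share depends on the region read. The median share of the window under DMSO peaks was 54.6%, which is lowered by construction, since that window holds upstream sequence. Giving each peak to the gene it overlaps most left 72 members marked in DMSO and 76 in EPZ. No alternative gave a member an SGC peak. No paired analysis was possible because each treatment has 1 pooled list, and for the same reason no replicate could be left out.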

Other observations

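Pseudogenes were taken by symbol, and copies annotated under other symbols were not counted. The annotation holds 326 with a symbol of the family, most of them processed copies of ribosomal protein mRNAs. Of these 11 (3.37%) lay under a DMSO peak, against 77 of 77 main genes, and each of the 11 peaks also touched a protein-coding gene. The share over all pseudogenes, or over genes of like length, was not computed. The 3.37% is therefore not read as particular to this family. Rpl30-ps3, in Fnbp4 on chromosome 2, had the highest value at 8.64 and was the 1 pseudogene under an EPZ peak. Rpl26-ps4, in Med15, had 5.59. None of the 326 lay under a DMSO peak that touched no protein-coding gene. How reads matching several copies were assigned is not given in the sources used here, so the absence of peaks on such copies is uncertain.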
